A study of Mus musculus with 8 samples.

Results

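Checkpoint and costimulatory ligands are the surface and secreted proteins with which an antigen-presenting cell tells a T cell to respond or to stand down, and here they are described at the RNA level in tumour-associated macrophages. The set consists of 10 mouse genes listed by name: Cd274, Pdcd1lg2, Cd80, Cd86, Cd40, Icosl, Cd276, Havcr2, Lgals9 and Sirpa. They were found by matching the accession of each non-control array probe to RefSeq transcripts, which gave 14 probes for 9 of the 10 genes, out of 20886 genes tested. No probe was matched to Cd40, the receptor through which helper T cells activate macrophages, and it is not analysed here.

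The macrophages came from breast tumours that grew for about 21 days in C57BL/6 mice after PyMT cells, mouse mammary tumour cells driven by the polyoma middle T oncogene, were implanted at the orthotopic site. Hosts were wild type (WT) or ATF3 knockout (KO), and ATF3 is a stress-induced transcription factor. The labels give this genotype for the hosts, state no age, and say nothing of Atf3 in the implanted cells. Cells double positive for F4/80 (the product of Adgre1, on mature mouse macrophages) and CD45 (that of Ptprc, on all leukocytes) were sorted, and RNA of 4 samples labelled WT and 4 labelled KO was hybridised to 1-colour arrays. The samples are numbered 1 to 4 in each group. Whether each came from a mouse of its own is not stated, and p-values therefore reflect the spread among these samples, which may be technical.

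T cells need an antigen signal together with a costimulatory one. CD80 and CD86 supply the latter through CD28 and are taken away by the inhibitory receptor CTLA-4, whereas PD-L1 (encoded by Cd274) and PD-L2 (Pdcd1lg2) engage PD-1 and restrain the T cell. ICOS ligand and B7-H3 (Cd276) belong to the same B7 family, TIM-3 (Havcr2) and galectin-9 (Lgals9) form a further inhibitory pair, and SIRP alpha (Sirpa) is the macrophage receptor that reads CD47 on other cells and holds back phagocytosis. Tumour macrophages are known to carry many of these proteins.

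Levels are given as log2 of the processed signal relative to each array's 75th percentile, so 0 is that percentile and 1 unit is a 2-fold step. A probe's level says nothing about another probe's, since probes differ in brightness. The 75th percentile lay between 619 and 927 intensity units, spots well above background made up 63.7% to 68.0% of an array, and 0 were saturated. Atf3 itself had no lower level with the KO label, at 5.05 ± 0.31 against 4.80 ± 0.21 in those labelled WT (SD, n = 4 each). The sources used here do not place its single probe inside or outside the deletion, so this does not check the labels. All 14 macrophage markers with a probe, Adgre1 and Ptprc among them, were well above background on all 8 arrays. Adgre1 differed by −0.07 and Ptprc by −0.09 (KO minus WT). With normexp background correction, a modelled subtraction of the local background that adds an offset, they differed by 0.0122 and 0.0928. The other probes of Ptprc gave 0.19 and 0.02. Also above background on all arrays were 13 of 13 T cell markers, 11 of 13 dendritic cell markers and 14 of 17 tumour epithelial markers, and in RNA from such a sort fewer cells of a type and less RNA per cell cannot be told apart.

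No member was called between the genotypes. KO means lay above WT means for 4 of the 9 members and below them for 5, and the median log2 difference was −0.06 against −0.0075 over all genes tested. With normexp, which moved the median of all genes to −0.14, it was 0.15 with 7 of 9 higher. None passed limma's test (adjusted p = 0.9998 for each), and across the array 0% of the genes did. At an unadjusted p under 0.05 there were 0 members, against 3.35% of all genes (700 of 20886), and the WT and KO values overlapped for every member, while they did not for 2.12% of all genes. The 95% intervals of 6 members (Cd274, Icosl, Cd276, Havcr2, Lgals9 and Sirpa) excluded a 2-fold change either way, as did those of 51.4% of all genes. Those of Pdcd1lg2, Cd80 and Cd86 did not, though with the sample number as a block that of Cd86 did, at −0.08 to 0.70. All 9 passed the filter on dim probes, and 13 of the 14 probes were well above background on all 8 arrays.

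**Figure D1:**
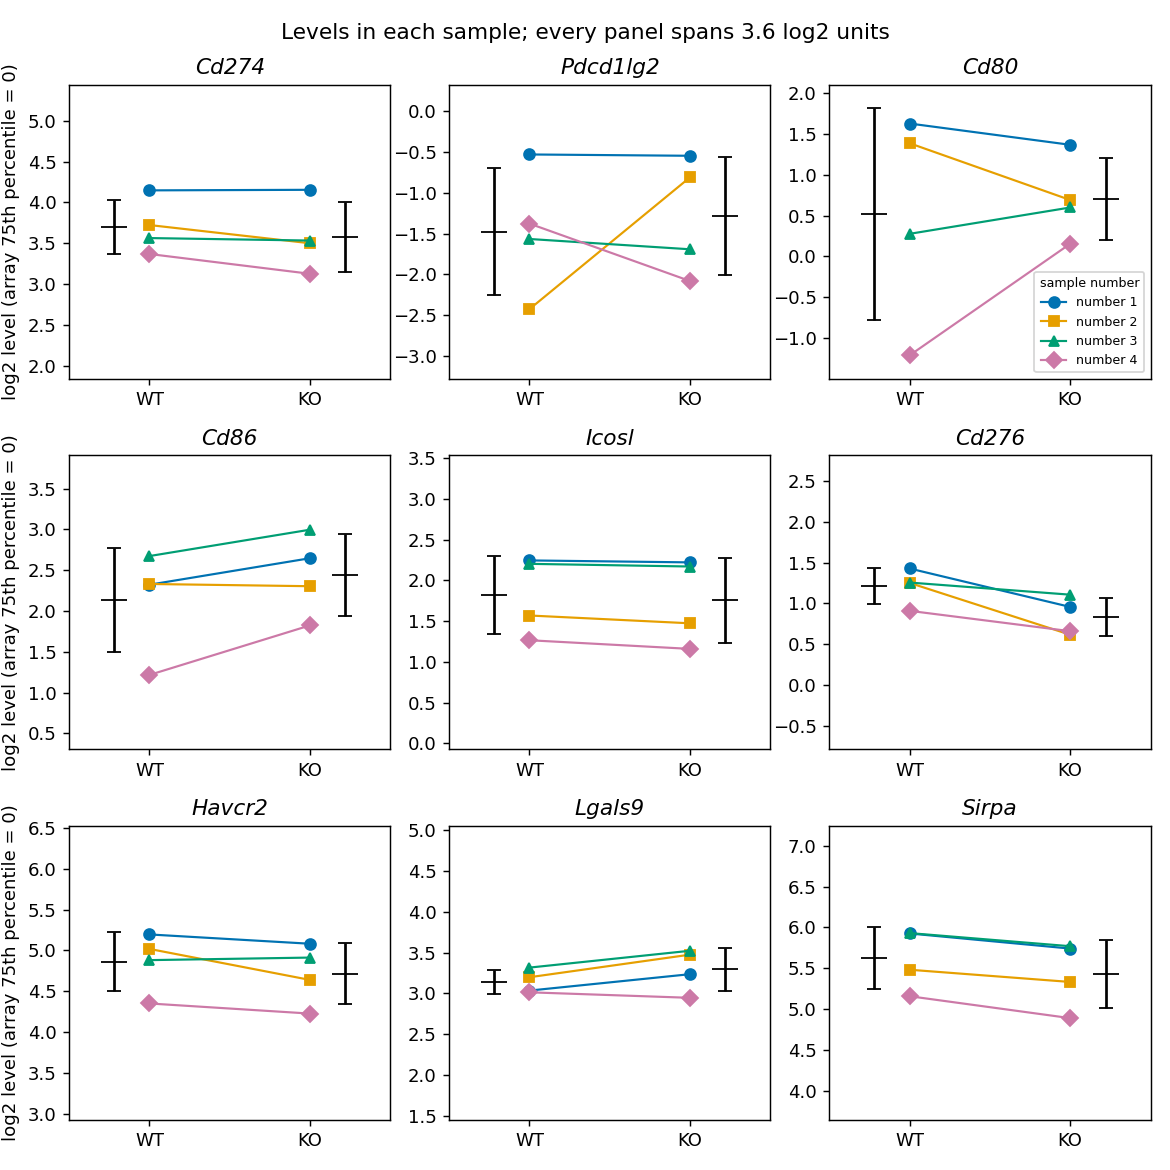
Log2 level (vertical axis, array 75th percentile = 0) of the probe that stands for each of 9 members in WT and KO samples, with lines joining samples of the same number and bars giving the group mean ± SD (n = 4). The lines of Cd276, Sirpa and Icosl all slope down, those of Icosl only slightly. Those of Cd274 run down or nearly level, and those of Pdcd1lg2 and Cd80 slope in both directions.

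Neither PD-1 ligand passed the test, and their differences had opposite signs. For Cd274 the WT levels, by sample number, were 4.15, 3.72, 3.56 and 3.37, and the KO levels 4.15, 3.50, 3.53 and 3.12. The sample numbered 1 was the highest and that numbered 4 the lowest in both groups, and the groups overlapped almost completely. The WT mean was 3.70 ± 0.33 and the KO mean 3.58 ± 0.43 (SD, n = 4 each). KO minus WT was thus −0.12, with a 95% interval from −0.75 to 0.50. Left-out samples gave −0.31 to 0.03, the sign turning without WT sample 1 or KO sample 4, and normexp gave 0.0900.

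Pdcd1lg2, the neighbour of Cd274 on chromosome 19, varied more, over a 3.72-fold range. Its WT levels were −0.53, −2.43, −1.57 and −1.38 and its KO levels −0.55, −0.81, −1.69 and −2.08, in the order of the sample numbers. The samples numbered 2 differed by 1.62 and those numbered 4 by −0.70, so the pairs disagreed in direction. KO minus WT, 0.19 with a standard error of 0.48, became −0.12 without WT sample 2 and −0.05 without KO sample 1. It was 0.80 within slide 1 and −0.42 within slide 2, each slide holding the samples of a pair of numbers.

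Both CD28 ligands were nominally higher in the samples labelled KO, and neither passed the test. Cd86 has a pair of probes, and both put the samples labelled KO higher in 3 of 4 same-numbered pairs. By the brighter probe the WT levels were 2.32, 2.33, 2.67 and 1.22, and the KO levels of the same numbers 2.65, 2.30, 3.00 and 1.82. WT sample 4 and KO sample 4 were the lowest of their groups, and 3 of the 4 KO values lay inside the range of the WT values. KO minus WT was 0.31 (95% interval from −0.57 to 1.18), and 0.26 by the second probe. Left-out samples moved the first value between 0.00065 (without WT sample 4) and 0.51.

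Cd80 had the widest spread among the members. WT samples 1 to 4 gave 1.63, 1.39, 0.28 and −1.21, and their KO counterparts 1.37, 0.69, 0.60 and 0.16. The span over all 8 samples was 7.17-fold, set mostly by WT sample 4. KO minus WT was 0.18 with a standard error of 0.62, or −0.39 without WT sample 4 and −0.04 without KO sample 1. It was −0.48 within slide 1 and 0.85 within slide 2. The interval, from −1.26 to 1.62, leaves changes of 2-fold in either direction possible at this number of arrays. With the sample number as a block it ran from −0.80 to 1.17.

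Icosl, the ligand of the inducible costimulator ICOS, was the member whose same-numbered samples lay closest. On the brighter of its probes WT samples 1 to 4 read 2.24, 1.57, 2.20 and 1.27 while the KO samples of those numbers read 2.22, 1.47, 2.17 and 1.16. Numbers 1 and 3 were high and numbers 2 and 4 low in both groups, a 2.12-fold span, while the pair differences ran only from −0.11 to −0.02. The mean difference was −0.06 (95% interval −0.85 to 0.72), or from −0.34 to 0.22 with the sample number as a block. It turned positive without WT sample 1, WT sample 3, KO sample 2 or KO sample 4, with normexp (0.18) and in the deposited table (0.0354). A second, dim probe gave 0.38 and was well above background on 3 of 4 WT arrays, and the levels of the probes correlated at only 0.25 over the 8 arrays.

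Cd276 had the largest mean difference of the 9 members and was lower in the KO sample of every number, though it did not pass the test over all genes. Its protein, B7-H3, is a B7 family member with inhibitory effects on T cells in many settings. Its probe read 1.43, 1.25, 1.26 and 0.91 in the WT samples and, in the same order of numbers, 0.96, 0.62, 1.11 and 0.66 in the KO samples. The 4 pair differences were −0.47, −0.63, −0.15 and −0.25, yet KO samples 1 and 3 still lay above WT sample 4. Over all genes, 9.64% were lower in 4 of 4 pairs. The means were 1.21 ± 0.22 and 0.84 ± 0.24 (SD, n = 4 each). KO minus WT was −0.38 with a standard error of 0.19, a 95% interval from −0.82 to 0.07 and an adjusted p of 0.9998 by limma.

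With the sample number as a block the interval for Cd276 was −0.74 to −0.02, and its adjusted p by limma 0.654. It was the only member with an unadjusted p under 0.05 in that fit, 1 of 9, where 7.56% of all genes had one. The difference stayed negative in all alternatives run, from −0.55 within slide 1 to −0.19 with normexp background correction, and was −0.20 within slide 2. Vessels of tumours are known to carry B7-H3. Endothelial markers were detected after the sort for F4/80 and CD45, and were also lower in the samples labelled KO. Of 14 listed, 10 were well above background on all arrays and 12 were tested, of which 12 were lower, with a median difference of −0.98, and none passed limma's test. That median was −1.45 within slide 1 and −0.32 within slide 2, where 2 of 12 were higher. It was −0.66 and −0.61 without WT samples 2 and 4, and −1.52 without WT sample 3. With no filter on dim probes, 14 markers were tested, 2 were higher and the median was −0.80. The 10 markers well above background on all arrays also gave a median of −0.80. With the sample number as a block, 4 of the 12 markers had an unadjusted p under 0.05 by limma. Vwf, the gene of von Willebrand factor and the smallest p of the list, differed by −0.63 (standard error 0.24), lower in 3 of 4 pairs. Relative to the 75th percentile, the summed signal of the endothelial markers was 6.22, 10.52, 3.02 and 12.7 in WT samples 1 to 4. In the KO samples of those numbers it was 3.11, 4.16, 3.10 and 7.0, so the WT sample was higher for numbers 1, 2 and 4 only. Within each genotype number 4 had the highest sum, yet Cd276 was lowest in WT sample 4 and second lowest in KO sample 4. Between genotypes, the pair numbered 2 had the largest fall in both the sum and Cd276. The pair numbered 3 had no fall in the sum and the smallest in Cd276. The part of endothelial cells in the Cd276 difference was not tested.

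The bases before the Cd276 start site are shown because genotype took its largest share of the spread in this member, and ATF3 binds the cyclic AMP response element TGACGTCA and the AP-1 site TGACTCA. The window is chr9:58555034-58555283 on the minus strand of GRCm38.p6, from RefSeq, with 77.6% G and C and 29 CpG pairs, and no capitals because neither motif matched on either strand.
Cd276: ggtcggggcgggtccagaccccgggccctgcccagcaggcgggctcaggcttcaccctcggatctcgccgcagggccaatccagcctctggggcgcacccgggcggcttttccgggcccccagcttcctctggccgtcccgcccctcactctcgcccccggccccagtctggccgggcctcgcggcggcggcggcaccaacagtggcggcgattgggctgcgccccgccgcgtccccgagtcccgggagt

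Promoter windows of 300 bases, 250 before and 50 after the start site, were found for 7 of the 10 listed genes. TGACGTCA and TGACTCA matched in 0 of these 7 windows on either strand, where 1.79% and 5.2% of all 32851 RefSeq windows held them. The shorter TGACG, which lies within the first motif and in 20.8% of all windows, matched in 0 of the 7. With any base in the middle (TGANTCA, which includes the AP-1 site), Cd80 matched 42 bases and Havcr2 200 bases before the start site, and 7.81% of all windows held such a match. The match is in capitals in each sequence below, on the plus strand of chr16:38458683-38458932 and chr11:46454681-46454930. A match is a string of letters and not a measured binding site.
Cd80: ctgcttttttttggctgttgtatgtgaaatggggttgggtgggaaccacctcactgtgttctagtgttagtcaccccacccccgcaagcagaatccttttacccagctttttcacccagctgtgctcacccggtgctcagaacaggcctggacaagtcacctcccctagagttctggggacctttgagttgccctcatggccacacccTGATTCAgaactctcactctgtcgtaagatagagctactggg
Havcr2: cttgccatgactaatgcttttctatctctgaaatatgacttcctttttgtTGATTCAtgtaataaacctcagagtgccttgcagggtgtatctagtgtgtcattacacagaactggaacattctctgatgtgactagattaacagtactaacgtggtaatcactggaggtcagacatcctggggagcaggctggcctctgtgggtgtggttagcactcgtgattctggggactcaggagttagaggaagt

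Havcr2 encodes TIM-3, a receptor that restrains both exhausted T cells and myeloid cells. By its brighter probe the levels ran 5.20, 5.02, 4.88 and 4.35 through the WT samples and 5.08, 4.64, 4.91 and 4.23 through the KO samples. Number 4 was the lowest in both groups, and the groups shared nearly the whole range. KO minus WT was −0.15 (standard error 0.26), 0.02 without KO sample 4, and 0.12 by the dimmer probe. Of the members with a TGATTCA match, Cd80 was thus nominally higher and Havcr2 nominally lower, each by less than its standard error.

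Lgals9, whose protein galectin-9 binds TIM-3, had the narrowest range of all members, 1.49-fold over the 8 samples. The WT samples stood at 3.04, 3.20, 3.32 and 3.01 and the KO samples at 3.24, 3.48, 3.52 and 2.95. The KO value was the higher in 3 of 4 pairs and the lower in the pair numbered 4. The mean difference was 0.15 with a 95% interval from −0.28 to 0.59, and it was positive in all alternatives run. It was 0.27 without KO sample 4, 0.08 without KO sample 3, 0.09 without KO sample 2 and 0.07 within slide 2. Its promoter window held 2 matches to the paired site of interferon regulatory factors, at 55 bases before and 16 after the start site, which 3.44% of all windows hold, and the other 6 windows held none.

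Sirpa gave 3 probes. The brightest put the WT samples at 5.93, 5.48, 5.93 and 5.16 and the KO samples at 5.74, 5.33, 5.77 and 4.89. As for the brighter Icosl probe, numbers 1 and 3 were high and numbers 2 and 4 low in both groups. The dimmest Sirpa probe shared this order and correlated with the brightest at 0.91 over the 8 arrays. The second brightest did not, with WT samples at 5.02, 5.25, 5.18 and 5.04 and a correlation of 0.54. By the brightest probe the genotypes compared as follows. Each KO sample lay slightly below its same-numbered WT sample, by −0.15 to −0.27, and the mean difference was −0.19 with a 95% interval from −0.84 to 0.45. It was −0.0097 without KO sample 4, −0.09 without WT sample 1 or 3, −0.35 without WT sample 4, and −0.29 and −0.30 without KO samples 1 and 3. The other probes gave 0.06 and −0.08 and normexp 0.0401, so the direction was not shared by all of them. Sirpb1a, a related gene of the SIRP family that may share sequence with Sirpa, differed by 0.02, and by −0.00655 in the deposited table.

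**Figure D2:**
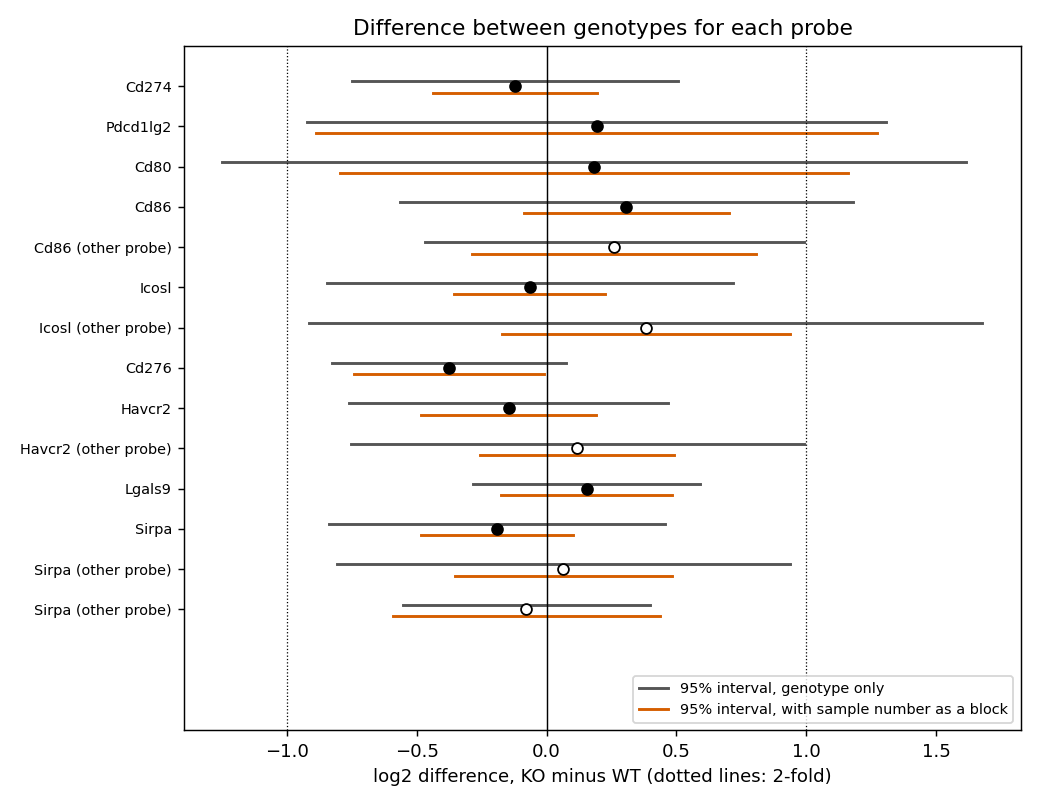
Log2 difference, KO minus WT (horizontal axis), of all 14 member probes with 95% intervals from the limma fit over all kept probes, without and with the sample number as a block. Filled points are the probes that stand for a gene and open points other probes of it, and of all 28 intervals the blocked one of Cd276 alone stays on one side of 0.

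What most members did follow was the sample number. In a split of each member's sum of squares, the number took a median of 86.5% and the genotype 5.0%. Over all genes tested the medians were 66.3% and 4.94%, and 42.9% and 14.3% are what the degrees of freedom alone give. The number's share was 99.3% for Icosl, 93.9% for Cd274, 92.4% for Sirpa and 89.9% for Havcr2. Among the other probes of these genes it was 32.8% for the second brightest of Sirpa and 88.0% to 94.6% for the rest. For Cd276 the number took 40.1% and the genotype 47.8%. For Pdcd1lg2 the number took 54.8% and the remainder 43.0%. In Cd276 and Pdcd1lg2 the number's share was thus below that of the median gene. In 7 of the 9 members the sample numbered 4 was the lowest in both groups, as it was for 18.2% of all genes.

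Markers of the cells in the sort moved with the number as well. The summed signal of 14 macrophage markers, relative to the 75th percentile, was 689, 618, 787 and 446 in the WT samples and 728, 565, 786 and 434 in the KO samples. That of 16 tumour epithelial markers was 62.9, 125.1, 25.1 and 163 in WT and 66.0, 122, 27.5 and 171 in KO samples. Numbers 1 and 3 thus had the highest macrophage and the lowest epithelial sums in both groups, the order seen in the brightest probes of Icosl and Sirpa. Dendritic cells are also rich in Cd80 and Cd86. The genes listed as their markers summed to 63.1, 62.6, 50.3 and 30.6 in WT and 74.7, 49.6, 58.5 and 34.1 in KO samples, lowest in number 4. This sum is weighted to its brightest genes, Itgax and Irf8, with mean log2 levels of 4.74 and 3.19 in WT samples. Flt3 and Xcr1, at −3.09 and −2.58, add little to it, so it does not measure dendritic cells alone. The part of these cell types in the members' levels was not tested. The labels do not say what a number stands for. Slide 1 held numbers 1 and 2 and slide 2 the others, so slide is part of the number.

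**Figure D3:**
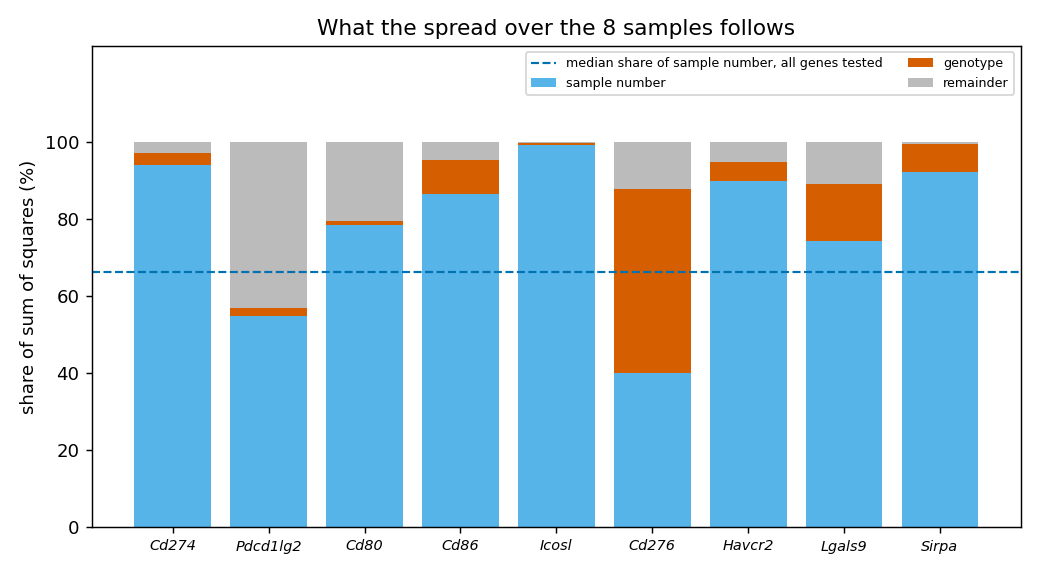
Share of the sum of squares over the 8 samples (vertical axis, %) taken by sample number, genotype and the remainder for each of the 9 members, with a dashed line at the 66.3% that sample number takes in the median gene. Sample number fills most of the bar for 8 members, and genotype takes more than the number for Cd276.

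Some members shared a profile over the 8 arrays, which is a description of paired samples. By the brightest probe of each, Icosl and Sirpa correlated at a Pearson r of 0.97, and Cd274 and Havcr2 at 0.89, as did Havcr2 and Sirpa. Pdcd1lg2 did not follow its neighbour Cd274 as closely (0.62). Outside the set, the named genes most like a member were Clec4d, a myeloid C-type lectin, for Cd274 (0.989), Mpc1, a mitochondrial pyruvate carrier subunit, and Slamf9 for Cd86 (0.999 and 0.996), Eloa for Icosl (0.995), Gpr141 for Havcr2 (0.993) and Pdgfb, a growth factor gene, for Cd276 (0.979). In the deposited table these were 0.969, 0.982, 0.991, 0.969, 0.938 and 0.967. Such values are the highest among all named genes and follow from that choice.

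Other ligands and inhibitory receptors of antigen-presenting cells also had a median near 0. Of 38 listed, 32 were tested, 21 were higher and 11 lower, with a median of 0.05, and 0 were called in either direction. The median was −0.08 without WT sample 4, −0.04 without KO sample 1 and −0.02 without KO sample 3. Clec4g, a lectin gene, differed by 0.92 and Tnfsf4, which encodes OX40 ligand, by 1.54, but their probes were well above background on only 1 and 2 of 4 WT arrays, and normexp gave −0.48 and −0.32. Timd4, a phosphatidylserine receptor related to TIM-3, differed by 0.72 with a standard error of 0.46, with WT samples 2 and 4 low at −2.43 and −3.01, and by 0.35 without WT sample 4. Lgals3, which encodes galectin-3, was lower in 4 of 4 pairs, with a mean difference of −0.25 and a standard error of 0.25, or −0.12 without KO sample 4. None of these passed (limma adjusted p = 0.9998).

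The receptors that these ligands meet on T cells and tumour cells were the list farthest from 0 among the pathway lists. Of 18 tested, 14 were higher and 4 lower with the KO label, with a median of 0.54 against −0.0075 over all genes, and 0 were called. The median was 0.18 with normexp background correction, 0.29 within slide 2, and 0.31 to 0.70 over the left-out samples. Ctla4, whose protein strips CD80 and CD86 from presenting cells, read −2.69, −1.28, −3.12 and −1.72 in the WT samples and −0.22, 0.11, −2.12 and −1.24 in the KO samples. It was higher in 4 of 4 pairs, though KO sample 3 lay below WT samples 2 and 4, and KO minus WT was 1.34 with a standard error of 0.59 (limma adjusted p = 0.9998).

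The receptors of smallest unadjusted p are named here, a choice that favours genes whose samples point one way. Cd96, a receptor for nectin-like ligands, differed by 1.00 (standard error 0.49), Tnfrsf18, which encodes the costimulatory receptor GITR, by 0.70 (0.39), and Cd5 by 0.48 (0.25), the last at −0.05 with normexp background correction. None passed (limma adjusted p = 0.9998, and 0.636 with the sample number as a block). In the blocked fit 6 of the 18 receptors tested and 6 of 13 T cell markers had an unadjusted p under 0.05 by limma. Over all genes 7.56% had one. Of 13 T cell markers, 11 were also higher, with a median of 0.52 (0.27 with normexp background correction, 0.29 without WT sample 3). Cd6, a T cell surface receptor with the smallest p of that list, ran the other way at −0.62 (standard error 0.25), lower in 3 of 4 pairs, though its second probe gave 0.41. The adaptor gene Lat, next by p, differed by 0.65. Their summed signal was 9.84 to 24.2 in WT and 11.9 to 30.9 in KO samples, higher in the KO sample of each number. Their part in the receptor levels was not tested, and Cd2 and Cd5 are in both lists.

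**Figure D4:**
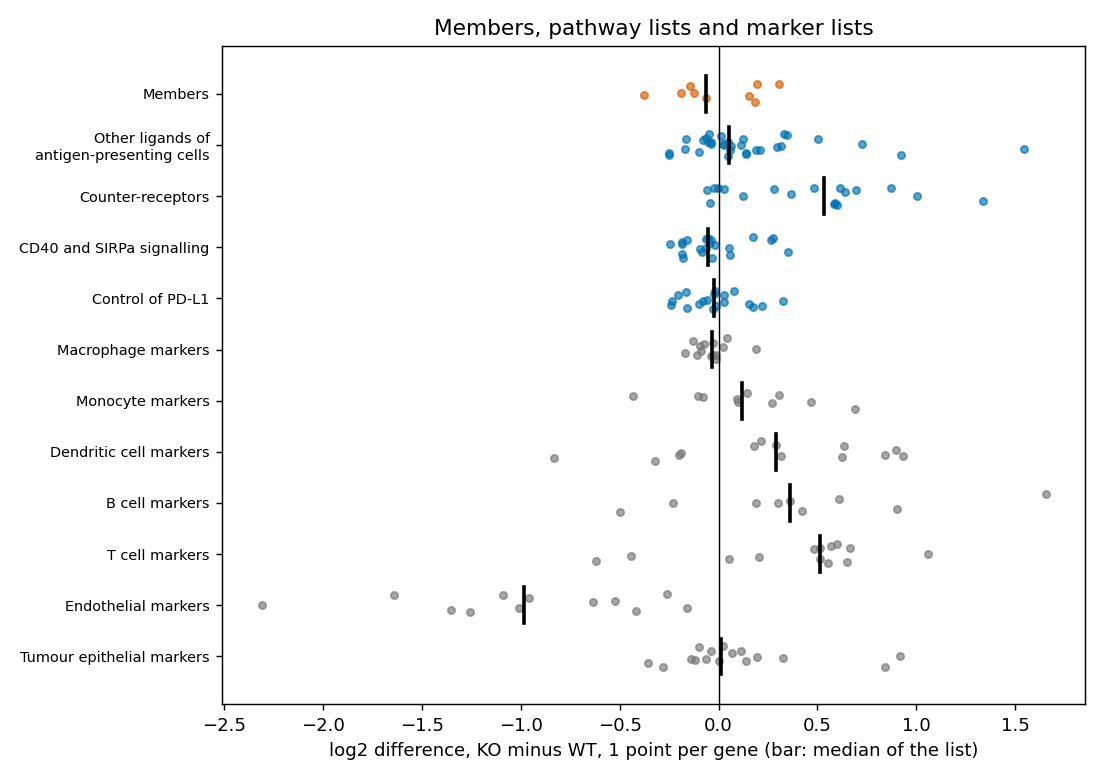
Log2 difference, KO minus WT (horizontal axis), of each tested gene in the members, 4 pathway lists and 7 marker lists, with a bar at each list's median. Members, signalling genes and macrophage markers sit near 0 (medians −0.06, −0.05 and −0.04), counter-receptors and T cell markers above it (0.54 and 0.52) and endothelial markers below it (−0.98).

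No gene of the lists for signalling behind the members and for control of PD-L1 passed the test. Of 21 genes of CD40 and SIRP alpha signalling tested, 6 were higher and 15 lower, with a median of −0.05 and 0 called, and 16 were higher with normexp background correction. The median was 0.04 without WT sample 1 and 0.07 without KO sample 4. Birc2, a ubiquitin ligase of the CD40 pathway, differed by 0.27 (standard error 0.19), Traf6, a CD40 adaptor, by −0.18 (0.20) and Traf3, which restrains CD40 signalling, by −0.18 (0.20), or 0.000295 with normexp. Traf6 was at −0.04 without KO sample 4, and Traf3 at −0.06 without WT sample 1. Map3k7, a kinase gene of the pathway, differed by 0.35 (0.38), by 0.00625 without WT sample 4 and by −0.16 with normexp. Of 20 genes listed for control of PD-L1, 19 were tested, and Cmtm6 was not among them. Of these 19, 7 were higher and 12 lower, with a median of −0.02 and 0 called, and 13 were higher with normexp background correction. There Hif1a, which encodes a hypoxia-induced factor, differed by 0.17, the interferon feedback inhibitor Socs1 by 0.33 and the kinase gene Jak2 by −0.24, or 1.11 by its second probe. Socs1 was at 0.07 without KO sample 1 and 0.11 without WT sample 3, Jak2 at −0.07 without WT sample 2, and Hif1a at −0.02 within slide 2. None of these passed (limma adjusted p = 0.9998).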

How the data were processed

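Cy3-labelled RNA from each sample was hybridised to its own array, per the labels' protocols. The authors' deposited scanner files give a background-corrected processed intensity per spot, extracted with Agilent Feature Extraction 10.7.1.1 per the file headers, while the submitters' processing notes name 10.5. The authors' deposited table of intensity values, of unstated scale, follows the quantile-normalized median signal (r = 0.9994 for differences between arrays) and served as an alternative.

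Of 45018 spots an array, the 43379 that are not controls were used, less those marked as outliers. Log2 signals were set relative to the 75th percentile of their array and averaged over a probe's spots. A probe was kept if well above background on at least 4 of 8 arrays (27174 of 41174), and a gene with several kept probes was represented by the brightest (20886 genes). Accessions without version were matched to a RefSeq table of GRCm38.p6, which named 25097 probes. Genotypes were compared with limma 3.58.1 (lmFit, eBayes, two-sided) in R 4.3.3, Benjamini-Hochberg adjusted over all genes, and the test was checked on simulated data. The simulation had independent noise, without sample numbers or slides, and added changes larger than any member's difference. It therefore does not cover differences of the members' size. Members and lists were chosen with earlier results of these data known. The rule for naming genes took each member probe, up to 4 genes of each pathway list and up to 2 of each marker list by smallest unadjusted p, both sort markers, and for each member the 2 genes of highest correlation. Not all of these are named, some items are not reported here, and Atf3 was added as the deleted gene.

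As a check of pairing, WT and KO samples of one number were compared in how their genes departed from the mean of their group. The correlations were 0.30, 0.14, 0.70 and 0.51 for numbers 1 to 4, all over 0.1, and the numbers were taken to pair the samples. WT 2 with KO 4 (0.15) and WT 4 with KO 2 (0.14) were as high as the pair numbered 2. The alternatives were normexp (offset 50, on the median spot and background signals, where the mean signal had been planned), another scale (the median of bright probes), quantile normalization, other filters, the deposited table, the replicate block, slide as a block and alone, eBayes with trend and robust, other probes, and each sample left out.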

Additional observations from a re-analysis of the deposited data

How the results depend on the processing

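The number of genes called was 0 in each setting except without KO sample 1, where it was 1 and no member (leave-one-out range 0 to 1). The replicate block called 0 genes, and raised the genes with an unadjusted p under 0.05 from 700 to 1579. The median difference of the members, −0.06, ranged from −0.25 to 0.13 over the left-out samples. It was 0.15 with normexp background correction, which moved the median of all genes from −0.0075 to −0.14, and 0.0354 in the deposited table. Of 180 alternative values of the members, 21 turned sign and 0 passed the threshold. The lowest adjusted p among them was 0.654.

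With normexp, Cd274 gave 0.0900, Icosl 0.18, Sirpa 0.0401, Cd5 −0.0476, Traf3 0.000295, Adgre1 0.0122, Ptprc 0.0928, Clec4g −0.48, Tnfsf4 −0.32, Siglech −0.46 and Map3k7 −0.16, each opposite to its reported sign. In the deposited table Icosl gave 0.0354 and Sirpb1a −0.00655. Within slide 1 Cd80 gave −0.48 and Sirpb1a −0.0615 and Map3k7 −0.0440, and within slide 2 Pdcd1lg2 gave −0.42, Hif1a −0.0249 and Adgre1 0.0565. Other probes turned Icosl (0.38, and 0.16 as the mean over its probes), Havcr2 (0.12), Sirpa (0.0640), Ptprc (0.19 and 0.02), Jak2 (1.11) and Cd6 (0.41). Over left-out samples the differences ran from −0.31 to 0.0285 for Cd274, −0.12 to 0.51 for Pdcd1lg2, −0.39 to 0.55 for Cd80, −0.25 to 0.13 for Icosl, −0.32 to 0.0162 for Havcr2, −0.29 to 0.30 for Sirpb1a, −0.34 to 0.13 for Adgre1 and −0.34 to 0.15 for Ptprc. The causes were not tested. The number of arrays, 4 a group, limits the precision: the median 95% interval reached 0.74 to either side, or 0.51 with the sample number as a block. Blocked intervals were −0.43 to 0.19 for Cd274 and −0.90 to 1.28 for Pdcd1lg2. They were −0.48 to 0.18 for Havcr2, −0.17 to 0.47 for Lgals9 and −0.47 to 0.09 for Sirpa.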

Other observations

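Single markers of other cells that present or receive these ligands, those of smallest unadjusted p in their lists, differed by more than the members did without passing the test over all genes (limma adjusted p = 0.9998 for each). Batf3, a transcription factor of cross-presenting dendritic cells, had WT levels of 0.88, 0.13, 0.19 and −0.58 and KO levels of 0.29, −0.59, −0.68 and −1.74, by sample number. It was lower in 4 of 4 pairs, with a log2 difference of −0.83 and a standard error of 0.47, or −0.48 without KO sample 4. Siglech, a plasmacytoid dendritic cell marker, differed by 0.93 (standard error 0.48), but was well above background on 1 of 4 WT arrays and differed by −0.46 with normexp. Ms4a1, which encodes the B cell protein CD20, was higher in 4 of 4 pairs by 1.66 on average (standard error 0.72). Pax5, a B cell transcription factor, was lower in 4 of 4 pairs by an average log2 difference of −0.50 (standard error 0.24). The Pax5 probe was dim, with mean levels of −4.21 in WT and −4.71 in KO samples, though well above background on all arrays. Its pair numbered 2 differed by −1.25 and that numbered 1 by −0.09. Of 9 B cell markers tested, 7 were higher with a median of 0.36, but 4 with a median of −0.17 under normexp background correction. Tie1, an endothelial receptor kinase, was lower in 4 of 4 pairs by an average log2 difference of −1.64 (standard error 0.87). Its probe was dim, well above background on 3 of 4 KO arrays, and the pair numbered 1 differed by −3.20. Left-out samples gave −2.21 to −1.10. Within the dendritic cell list the directions were mixed, with 9 of 13 higher and a median of 0.29. That median was −0.06 without KO sample 1, with 6 higher, 0.09 without WT sample 3 or 4, and 0.66 without KO sample 3. No sample stood out from the other 3 of its group for any of the 14 member probes by Dixon's test (28 groups).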
